A study of Mus musculus with 6 samples.

Results

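The genes described here encode the machinery that copies DNA and supplies its nucleotides. They were chosen as 51 genes of known role, from origin licensing to thymidylate synthesis, and were read wherever an array probe carried that gene's symbol and no other. Such a probe was found for 47 of the 51, among 18069 genes named on the array in all. Gins1, Orc3, Rfc3 and Tyms were not measured this way, the probes of Orc3 and Tyms being annotated to a further gene. The arrays compared neurospheres, floating clusters of neural precursors, in 2 groups of 3. The anti-miR-335 group was transfected with an antisense reagent, 2'-O-methyl in chemistry, that targets the microRNA miR-335, and the control group with a 2'-O-methyl nonsense oligonucleotide directed at EGFP. Both groups were dorsal telencephalon cells of embryonic day 12.5 C57BL/6 mice. They were grown without serum in bFGF and EGF (20 ng/ml each), with LIF (0.15 ng/ml), heparin (0.85 units/ml) and progesterone (20 nM). Exposure is labelled 24 with no unit. The replicates are called independent, but what was repeated is not said, so the p-values speak of the spread among these 6 samples.

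DNA replication starts when the origin recognition complex, with Cdc6 and Cdt1, loads the MCM helicase onto origins before S phase. Cdc7 kinase and cyclin-dependent kinases then recruit Cdc45 and the GINS complex, the helicase opens the DNA, and polymerases copy it behind the sliding clamp Pcna. E2F transcription factors are known for switching on many of these genes as cells enter S phase, and cortical precursors that divide use them in each cycle.

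The block of miR-335 could not be checked, since no microRNA levels were analysed here. The labels name miR-335 without an arm. Both mature forms are shown because they are what the antisense reagent could pair with; they lie on the plus strand of chromosome 6 in GRCm38.p6 (RefSeq), at chr6:30741314-30741336 and chr6:30741354-30741375, and capitals mark the seed, bases 2 to 8.
mmu-miR-335-5p: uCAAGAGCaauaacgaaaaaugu
mmu-miR-335-3p: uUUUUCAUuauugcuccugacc

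A feature that many of these genes share is an E2F-like motif at their start. The sequence TTTNNCGC was searched on both strands from 250 bases before to 50 after the start in RefSeq's promoter table (GRCm38.p6), which holds 52 promoters of 42 of the 51 genes. It was found in 16 of the 52 (30.8%), against 1698 of 32851 promoters in the whole table (5.17%). CCAAT, the site of the factor NF-Y, was found in 29 of the 52 (55.8%), against 12289 of the 32851 (37.4%). The stretches below are printed 5′ to 3′ on the gene's strand, with the motif or its complement in capitals, and show it upstream of helicase, kinase and polymerase genes. They lie at chr1:128359734-128359763 (minus strand), chr8:75109345-75109374 (plus), chr10:128705173-128705202 (minus), chrX:93632275-93632304 (minus) and chr11:98908002-98908031 (plus).
Mcm6: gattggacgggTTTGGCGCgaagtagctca
Mcm5: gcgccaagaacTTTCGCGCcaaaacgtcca
Cdk2: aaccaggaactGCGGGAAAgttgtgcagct
Pola1: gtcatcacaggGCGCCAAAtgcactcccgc
Cdc6: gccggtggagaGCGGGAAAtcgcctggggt

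Mcm6 held 3 such matches, and in Mcm5 a second copy on the other strand overlaps the one in capitals. A match describes letters only and is no evidence of binding. The 13 measured genes with the motif had a median log2 difference of 0.18, anti-miR-335 minus control, and the 26 without it 0.13.

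No replication gene passed the test. By limma, which fits all 34847 probes together and adjusts by Benjamini-Hochberg, 0 of the 47 had an adjusted p under 0.05, nor did any other probe (0.0% called). Their adjusted p ran from 0.474 to 1. At an unadjusted p under 0.05, 4 of the 47 remained (8.51%), close to the 9.07% of all probes. The differences were small: 32 of the 47 had a positive value, anti-miR-335 minus control (68.1%, against 51.9% of all probes), and their median log2 difference was 0.13, against 0.01 over all probes. Group values did not overlap for 14 genes (29.8%), against 14.9% of all probes. For 12 of the 14 the anti-miR-335 arrays were the higher (25.5%, against 7.57% of all probes), and for 2 the lower (4.26%, against 7.33%). No test was made of these shares. Medians over lists include fitted values of genes near background. In RNA from whole cultures, a change in the share of dividing cells and a change in transcript per cell cannot be told apart.

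**Figure D1:**
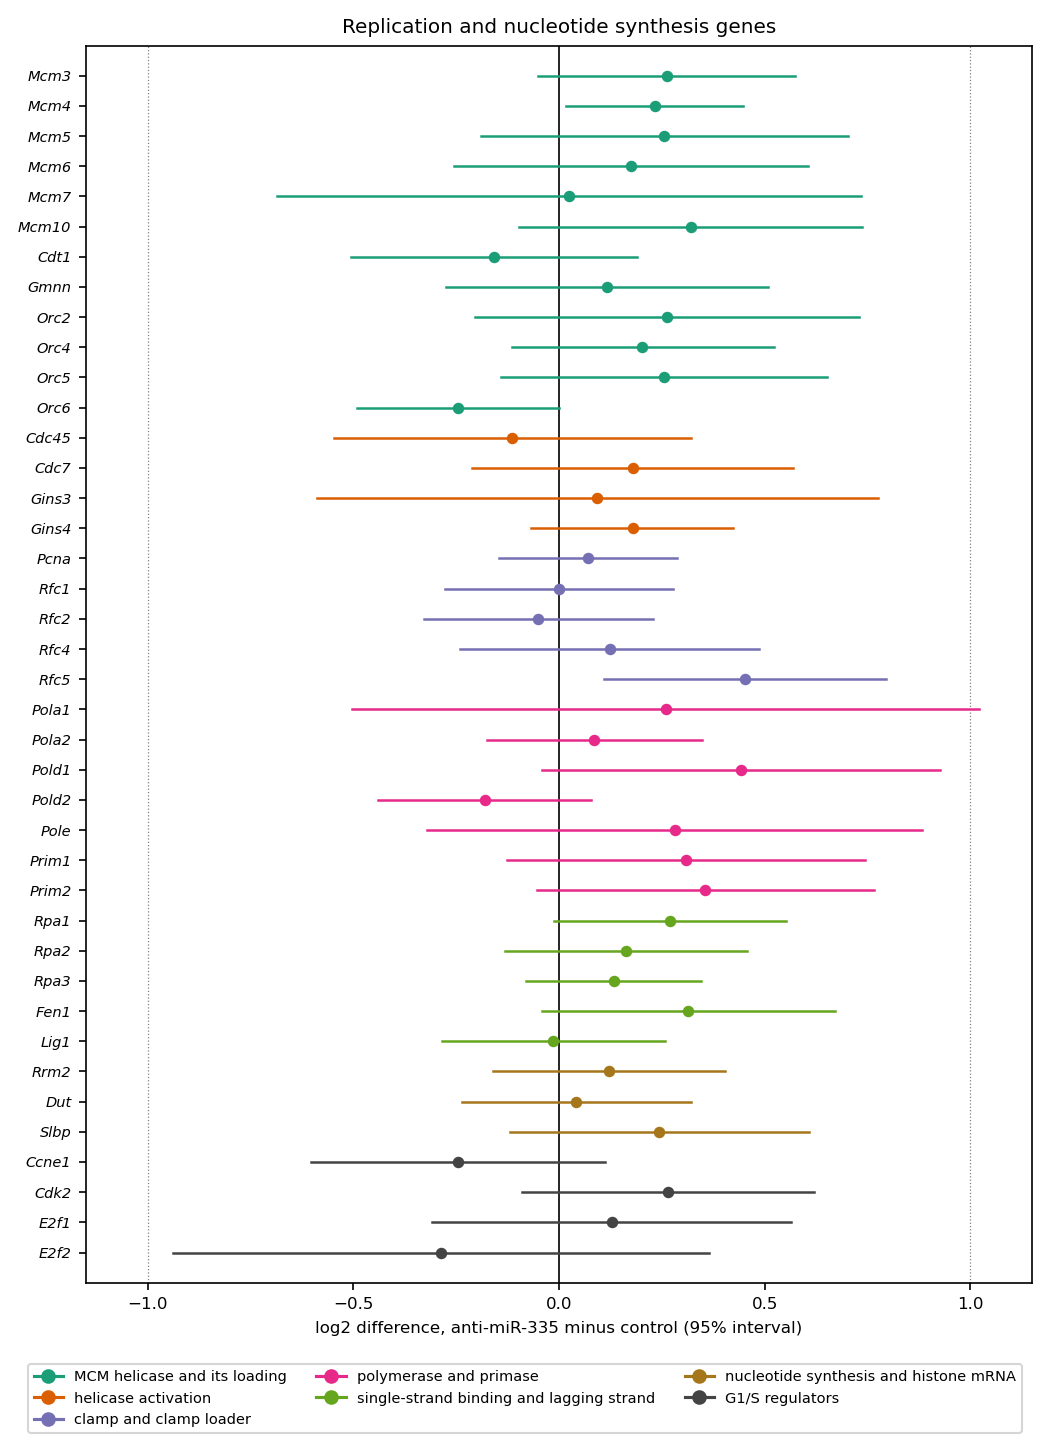
Log2 difference, anti-miR-335 minus control, with its 95% interval from limma (n = 3 arrays per group, 2 anti-miR-335 arrays for Prim2), for the 40 genes above background on at least 3 arrays, coloured by role. Dotted lines mark 2-fold in either direction. The points run from -0.29 for E2f2 to 0.45 for Rfc5, and only the interval of Pola1 crosses a dotted line.

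The intervals say how large a change these arrays would still allow. The background limit of an array was set at 3 scaled median absolute deviations over the median of its negative controls; 40 of the 47 genes exceeded it on at least 3 arrays and 35 on all 6. For 39 of these 40, the 95% interval of the difference lay within 2-fold in both directions. Over all 47 this held for 40 (85.1%), against 61.7% of all probes. Of all 34847 probes tested, 21956 were above background on at least 3 arrays. The part of brightness in this contrast was not tested. Pola1, the catalytic subunit of polymerase alpha, was the exception at 2-fold (-0.50 to 1.02 on the log2 scale). These intervals are per gene and not adjusted for their number.

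The arrays are not equal, and control replicate 1 stood apart. Leaving it out turned the count of probes past an adjusted p of 0.05 by limma to 1100 (3.17%: 2.27% higher, 0.906% lower), and leaving out both replicate 1 arrays to 1571 (4.57%: 3.52% higher, 1.05% lower). Of the replication genes, 0 of 47 passed without control replicate 1 and 3 of 46 (6.52%) without both: Mcm3, Mcm6 and Rfc5, all higher. Among genes above background on at least 3 arrays, 7.69% passed without both, against 7.17% of such probes. With arrays weighted by their quality 0 of 47 passed, against 1.36% of all probes (0.91% higher, 0.451% lower). Its spike-in spots were also the dimmest (median 3.49, where the other arrays had 3.89 to 5.19). The control replicate 1 value lay above both other controls for 24 of the 47 genes and below both for 13. The same shares were not counted over all probes. Relative to each gene's mean over 6 arrays, the 47 genes had median log2 deviations of 0.02, 0.05 and 0.08 on anti-miR-335 replicates 1, 2 and 3. On control replicates 1, 2 and 3 the medians were 0.00, -0.09 and -0.10. By this measure control replicate 1 lay nearest to the anti-miR-335 arrays. Over all probes tested the medians were 0.00, 0.04 and 0.00 on the anti-miR-335 arrays and 0.05, -0.03 and -0.03 on the controls. Control replicate 1 thus stood above the other controls over all probes too, and its shift was not particular to these genes. Differences without control replicate 1 are therefore given beside the others for some genes below. Leaving out the control nearest to the other group tends to widen the differences of these genes by construction. Their median log2 difference went from 0.13 to 0.17. Such values and their adjusted p by limma describe how much 1 array matters and are no separate test.

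**Figure D2:**
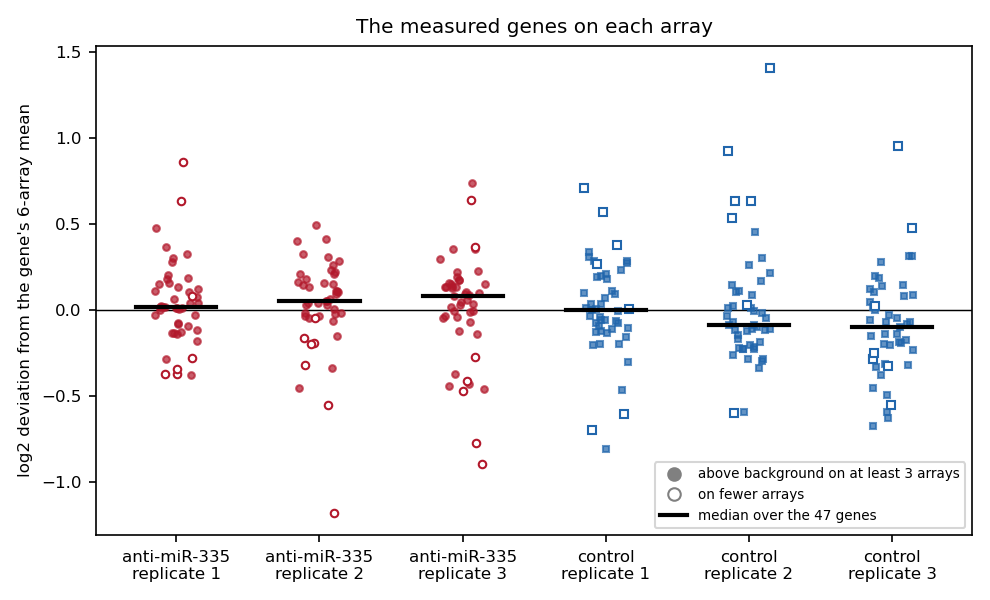
Log2 deviation of each of the 47 genes from its own 6-array mean (vertical axis) on each array, anti-miR-335 arrays as circles and control arrays as squares. Bars mark the median over the 47 genes, 0.02, 0.05 and 0.08 on the anti-miR-335 arrays and 0.00, -0.09 and -0.10 on the controls; open symbols are genes above background on fewer than 3 arrays and spread widest.

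The cultures carried the marks of neural precursors. All 9 measured precursor markers were above background on every array, among them Sox2, Pax6, Nes and Fabp7. Their summed intensity was 323 to 356 on the anti-miR-335 arrays and 283 to 312 on the controls, in units of the array median. Bright probes carry that sum: of the 9 markers only Fabp7 (110 ± 2.59 against 90.1 ± 8.62 in controls) and Hes5 (4.44 ± 0.0680 against 2.60 ± 0.434) were free of overlap, both higher, while Nes (-0.15) and Emx2 (-0.25) had negative log2 differences. Neuronal markers (7 of 9 above background somewhere, not Nefl and Stmn2) summed to 16.6 to 23.0 against 13.4 to 17.1 in controls, with Dcx (log2 difference 1.01 ± 0.18) and Crmp1 (0.75 ± 0.16) higher without overlap. Astrocyte markers (7 of 7) summed to 241 to 279 against 246.6 to 250.6 in controls, a sum set by the bright Aldoc and S100b. Of the 7, 6 were higher, Gja1 (13.2 ± 4.097 against 5.94 ± 1.43 in controls) and Aqp4 (16.9 ± 1.67 against 10.5 ± 0.908) without overlap.

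Oligodendrocyte lineage markers (6 of 6) summed to 25.8 to 53.0 against 18.4 to 42.6 in controls. Pdgfra (15.9 ± 2.39 against 7.95 ± 1.46 in controls) and Sox10 (3.29 ± 0.139 against 2.55 ± 0.301) were higher without overlap. Olig1 was split within both groups, at 18.6, 26.8 and 1.61 on the anti-miR-335 arrays and 1.93, 24.3 and 25.9 on the controls. Anti-miR-335 replicate 3 and control replicate 1 thus stood apart there, and their deviations from the group means correlated at 0.318 over 17843 probes, the highest of the 9 cross-group pairs; Mcm7 was also lowest on these arrays. Ventral telencephalon markers (5 of 6, not Lhx6) summed to 24.1 to 29.5 against 21.7 to 28.5 in controls. Gad1 (15.2 ± 2.69 against 11.8 ± 4.14 in controls), Nkx2-1 (5.63 ± 0.183 against 6.10 ± 0.373), Gsx2 and Dlx1 were above background on every array. The regional identity of the cultures was therefore not read from these markers. Microglial markers summed to 5.94 to 6.02 against 7.26 to 7.51 in controls, a gap set mainly by Trem2 (3.27 ± 0.126 against 4.85 ± 0.221). Cx3cr1 went the other way without overlap (1.09 ± 0.271 against 0.724 ± 0.122 in controls), and Ptprc, Itgam and Tyrobp were not above background on any array. Endothelial (4 of 7, not Pecam1, Cdh5 or Flt1), mesenchymal (2 of 8) and erythroid (2 of 3) markers summed to under 4 on each array. No marker passed an adjusted p of 0.05 with all 6 arrays (limma). The part of these markers in the results was not tested.

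The MCM helicase and the proteins that load it were measured for 15 of 16 genes, with a median log2 difference of 0.20. Of these 15, 11 were higher and 0 passed. Mcm4, a subunit of the helicase ring, had intensities of 9.47, 9.96 and 9.84 on the anti-miR-335 arrays, against 8.64, 8.30 and 7.96 on the controls. Every anti-miR-335 array lay above every control, and both groups were tight. The means were 9.76 ± 0.258 and 8.30 ± 0.340 (SD, n = 3 each), a log2 difference of 0.23 ± 0.10 (SE) with an adjusted p of 0.527 by limma. It was 0.26 without control replicate 1.

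Other subunits of the ring were less even. Mcm3 lay at 4.62, 5.99 and 6.27 on the anti-miR-335 arrays, against 5.13, 4.53 and 4.33 in controls. Anti-miR-335 replicate 1 fell among the controls, so the groups overlapped; the log2 difference was 0.26 ± 0.14, and 0.47 (adjusted p = 0.0371 by limma) without both replicate 1 arrays. Mcm6 lay at 3.02, 4.22 and 3.75 against 4.31, 2.81 and 2.74 in controls. Control replicate 1 was here the highest of the 6 arrays. Its log2 difference was 0.18 ± 0.19, 0.39 without control replicate 1 and 0.52 (adjusted p = 0.0479 by limma) without both replicate 1 arrays.

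Mcm7 showed the reverse arrangement. It lay at 1.87, 1.95 and 1.21 on the anti-miR-335 arrays, against 0.928, 2.23 and 2.02 in controls, control replicate 1 being the lowest array. The log2 difference of 0.02 ± 0.32 became -0.37 without that array, with an adjusted p of 0.397 by limma. Mcm5 lay at 0.891, 1.03 and 1.004 against 0.775, 0.839 and 0.834 in controls, without overlap but close to background (0.26 ± 0.20). Mcm2 was not above background on any array, with 0.668, 0.117 and 0.305 in the anti-miR-335 arrays and 0.479, 0.533 and 0.294 in controls, so no difference is given. The ring subunits above background thus had differences from 0.02 to 0.26, and no difference between subunits was tested.

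Mcm10, which helps to activate the loaded helicase, lay at 1.37, 1.10 and 1.27 on the anti-miR-335 arrays, against 0.970, 0.951 and 1.07 in controls. The groups did not overlap and the log2 difference was 0.32 ± 0.19 (adjusted p = 0.647 by limma). Of the licensing factors, Cdt1 lay at 4.19 ± 0.757 against 4.64 ± 0.551 in controls, and its inhibitor geminin, Gmnn, at 1.38 ± 0.189 against 1.27 ± 0.0194. Both overlapped between groups. Cdc6, the loading ATPase, was above background on 1 control array alone, at 0.327, 0.354 and 0.232 against 0.587, 0.751 and 0.325 in controls; a second Cdc6 probe was not above background on any array.

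In the origin recognition complex, 1 subunit was lower without overlap and 1 higher. Orc6, its smallest subunit, lay at 16.3, 15.5 and 15.7 on the anti-miR-335 arrays, against 16.5, 19.1 and 20.9 in controls. All anti-miR-335 arrays lay below all controls, though control replicate 1 missed them by little. The log2 difference was -0.25 ± 0.11 (unadjusted p = 0.0496, adjusted p = 0.55 by limma), and -0.34 without control replicate 1 (adjusted p = 0.0677). Orc4 lay the other way, at 2.04, 2.02 and 2.02 against 1.85, 1.62 and 1.83 in controls, again without overlap (0.20 ± 0.14). Orc2 and Orc5 overlapped between groups, with log2 differences of 0.26 ± 0.21 and 0.26 ± 0.18; for Orc5 the value was 0.46 without control replicate 1. Orc1 was not above background on any array. Members of this complex therefore differed in sign, and no difference between them was tested.

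**Figure D3:**
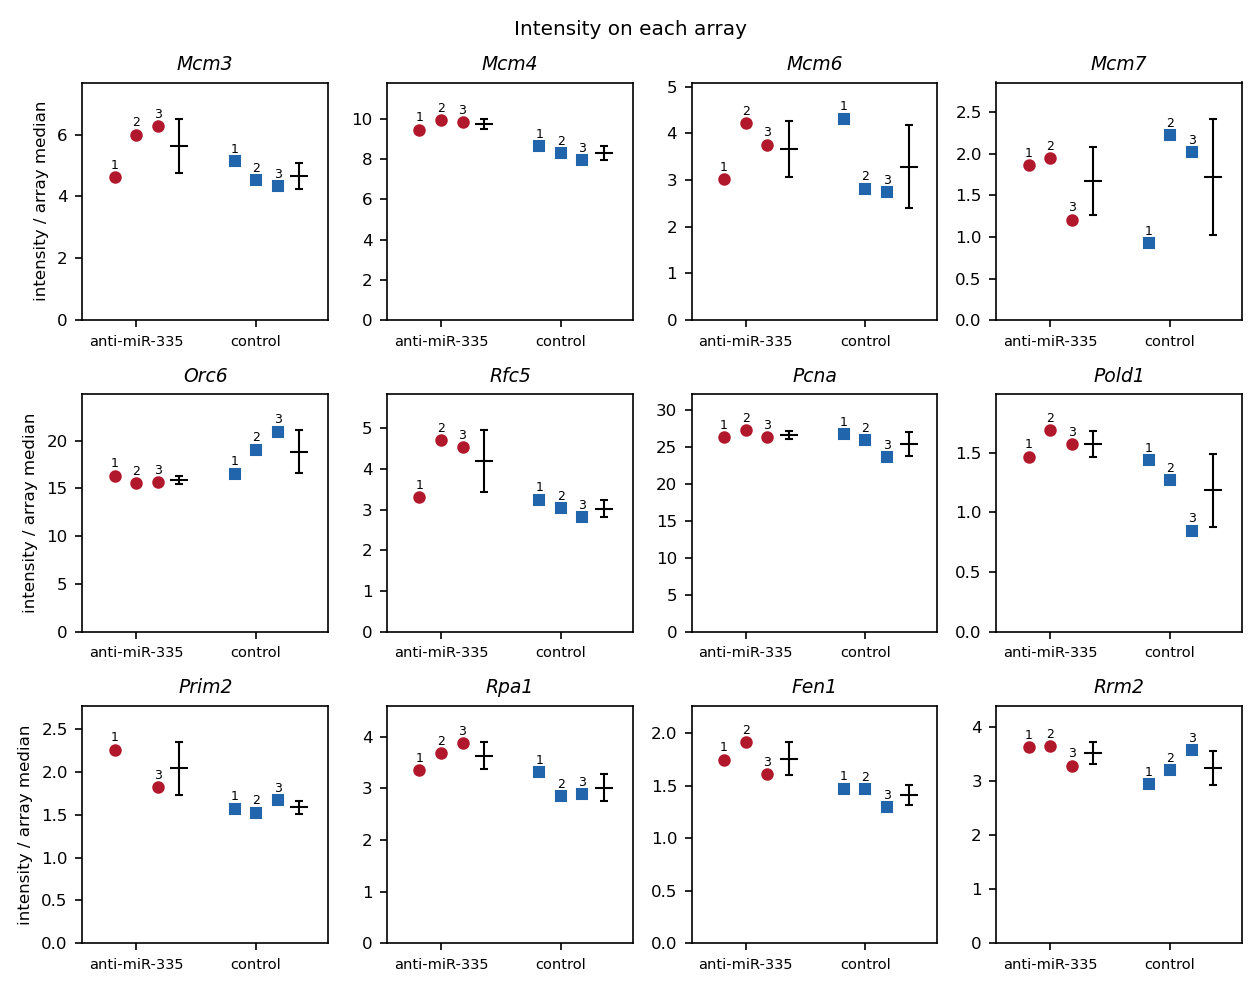
Intensity in units of the array median (vertical axes, each starting at 0) on each of the 3 anti-miR-335 arrays (circles) and 3 control arrays (squares), numbered by replicate, with mean and SD beside them. Mcm4, Rfc5, Pold1, Prim2, Rpa1 and Fen1 do not overlap and are higher in the anti-miR-335 arrays, Orc6 is lower, and the controls of Mcm6 and Mcm7 are split by control replicate 1 in opposite directions.

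Helicase activation was measured for 5 of 6 genes, with a median log2 difference of 0.09. Gins4, a subunit of the GINS complex, lay at 4.74, 4.71 and 5.05 on the anti-miR-335 arrays, against 4.35, 4.49 and 3.99 in controls. The groups did not overlap and the log2 difference was 0.18 ± 0.11 (adjusted p = 0.669 by limma). Cdc7, the kinase that triggers firing, lay at 2.28 ± 0.0710 against 2.04 ± 0.425 in controls, its difference being -0.01 without control replicate 1. Cdc45, which completes the active helicase, had a log2 difference of -0.11 ± 0.20 and Gins3 of 0.09 ± 0.31. Gins2 was not above background on any array.

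The sliding clamp and its loader had a median log2 difference of 0.07 over 5 of 6 genes. Pcna, the clamp that tethers polymerases to DNA, lay at 26.4, 27.2 and 26.3 on the anti-miR-335 arrays, against 26.7, 25.9 and 23.6 in controls. The groups overlapped, and the log2 difference of 0.07 ± 0.10 had a 95% interval from -0.15 to 0.29. Rfc5, a small subunit of the clamp loader, had the largest positive difference among genes above background on at least 3 arrays. It lay at 3.32, 4.72 and 4.53 against 3.25, 3.03 and 2.81 in controls. Every anti-miR-335 array exceeded every control, replicate 1 of each group by the least.

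The Rfc5 log2 difference was 0.45 ± 0.15 (unadjusted p = 0.0145, adjusted p = 0.474 by limma), 0.50 without control replicate 1 (adjusted p = 0.111) and 0.66 without both replicate 1 arrays (adjusted p = 0.0279). Of the other loader subunits, Rfc1 lay at 9.98 ± 1.01 against 10.0 ± 1.28 in controls, and Rfc4 had a log2 difference of 0.12 ± 0.16. For Rfc2 the value depended on the probe, and no difference between subunits was tested. Its brighter probe gave -0.05 ± 0.13, with 13.7, 13.1 and 13.1 against 16.5, 12.0 and 13.3 in controls. A second probe lay at 6.82, 7.90 and 7.30 against 6.27, 6.01 and 5.17 in controls, without overlap, a log2 difference of 0.34 ± 0.12 (adjusted p = 0.479 by limma).

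Polymerase and primase genes, all 7 measured, had a median log2 difference of 0.28, and 6 of 7 lay higher on the anti-miR-335 arrays. None passed. Pold1, the catalytic subunit of polymerase delta, lay at 1.47, 1.69 and 1.57 on the anti-miR-335 arrays, against 1.44, 1.27 and 0.847 in controls. The groups barely missed each other, and the control spread was the wider (1.57 ± 0.111 and 1.19 ± 0.305). The log2 difference was 0.44 ± 0.22 (adjusted p = 0.587 by limma), 0.60 without control replicate 1 and 0.22 without control replicate 3. Its partner subunit Pold2 went the other way, at 26.4 ± 0.920 against 30.1 ± 3.91 in controls (-0.18 ± 0.12); control replicate 1, at 25.6, lay among the anti-miR-335 arrays, and without it the value was -0.29 (adjusted p = 0.0997).

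The primase makes the RNA primers from which DNA synthesis starts. Prim2, its large subunit, lay at 2.25 and 1.82 in anti-miR-335 replicates 1 and 3, against 1.57, 1.52 and 1.66 in controls; it has no value on anti-miR-335 replicate 2, so the fit used 5 arrays. The log2 difference was 0.36 ± 0.18 (adjusted p = 0.605 by limma). Prim1, the catalytic subunit, lay at 1.44, 2.15 and 1.57 against 1.56, 1.24 and 1.32 in controls, overlapping at replicate 1, with 0.31 ± 0.20. Pola2 of the polymerase alpha complex differed by 0.09 ± 0.12 and Pole, the catalytic subunit of polymerase epsilon, by 0.28 ± 0.27.

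Single-strand binding and lagging strand genes were measured in full, 5 of 5, with a median of 0.16. Rpa1, the large subunit of the protein that coats single-stranded DNA, lay at 3.35, 3.68 and 3.87 on the anti-miR-335 arrays, against 3.31, 2.85 and 2.88 in controls. Rpa3, the small subunit, lay at 14.8, 15.2 and 16.1 against 14.6, 13.5 and 13.9 in controls. Both were free of overlap, with control replicate 1 closest to the anti-miR-335 arrays, and had log2 differences of 0.27 ± 0.13 and 0.13 ± 0.10. Rpa2 overlapped (0.16 ± 0.13), its lowest array being control replicate 1 at 2.97.

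Fen1, the nuclease that trims Okazaki fragments, lay at 1.75, 1.92 and 1.61 on the anti-miR-335 arrays, against 1.47, 1.47 and 1.30 in controls. The groups did not overlap, and the log2 difference was 0.31 ± 0.16 (adjusted p = 0.599 by limma). Lig1, which seals those fragments, lay at 3.08 ± 0.0602 against 3.12 ± 0.233 in controls, a log2 difference of -0.01 ± 0.12 with a 95% interval from -0.29 to 0.26.

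Nucleotide synthesis genes and Slbp, the histone mRNA binding protein, had a median log2 difference of 0.04 over 5 of 6 genes. Rrm2, the regulated subunit of ribonucleotide reductase, lay at 3.63, 3.65 and 3.29 on the anti-miR-335 arrays, against 2.95, 3.21 and 3.58 in controls. The groups overlapped, and the difference of 0.12 ± 0.13 became 0.05 without control replicate 1. Rrm1, the large subunit, lay at 0.319, 0.206 and 0.103 against 0.493, 0.469 and 0.306 in controls. No array put it above background, so its unadjusted p of 0.0426 (adjusted p = 0.537 by limma) rests on values under the detection limit and no difference is given.

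Dut, which removes dUTP, differed by 0.04 ± 0.13, with a 95% interval from -0.24 to 0.32. Slbp differed by 0.24 ± 0.16, and by 0.41 without control replicate 1 (adjusted p = 0.115 by limma). Thymidine kinase, Tk1, was above background on 1 anti-miR-335 array (replicate 3, 0.826) and on no control array, and its second probe on none.

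Of the regulators of S phase entry, all 5 were measured and 2 lay higher on the anti-miR-335 arrays. Their median log2 difference was -0.245 (-0.256 without control replicate 1), the only negative median among the roles. Cyclin E1, Ccne1, lay at 1.82, 1.475 and 1.85 on the anti-miR-335 arrays, against 2.00, 2.23 and 1.86 in controls. The groups missed overlapping by a hair, and the log2 difference was -0.25 ± 0.16 (adjusted p = 0.682 by limma). Its kinase partner Cdk2 lay at 3.69, 3.81 and 3.56 against 3.54, 3.42 and 2.39 in controls, also without overlap, with 0.26 ± 0.16; control replicate 3 was the low array, and without it the value was 0.08.

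E2f1, a transcription factor of the S phase program, lay at 1.501, 1.92 and 1.77 on the anti-miR-335 arrays, against 2.00, 1.30 and 1.4995 in controls. Control replicate 1 was its highest array, and the log2 difference of 0.13 ± 0.20 became 0.30 without it. E2f2 differed by -0.29 ± 0.29, the lowest value among genes above background on at least 3 arrays. Cyclin E2, Ccne2, was above background on control replicate 2 alone, at 0.789.

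**Figure D4:**
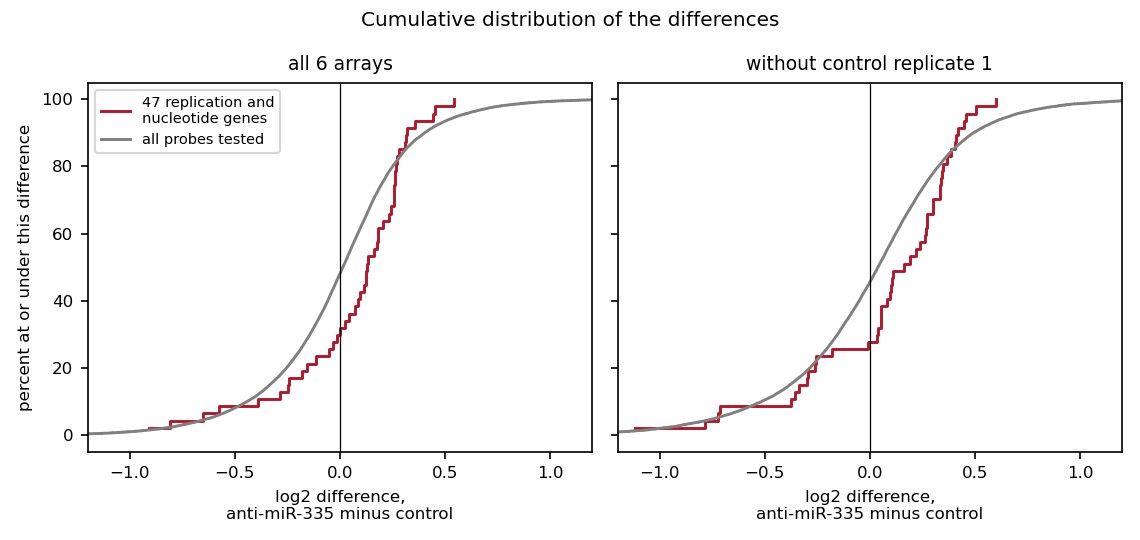
Cumulative share of genes or probes (vertical axis, percent) at or under a given log2 difference, anti-miR-335 minus control (horizontal axis), for the 47 replication and nucleotide genes and for all probes tested, with all 6 arrays (left) and without control replicate 1 (right). The median of the 47 is 0.13 on the left and 0.17 on the right, where that of all probes is 0.01 and 0.04.

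A further 83 genes of replication, its regulation and nucleotide synthesis were listed by known role, and 76 were measured. Their median log2 difference was 0.07, with 46 of 76 higher in the anti-miR-335 arrays and 0 past the threshold. At an unadjusted p under 0.05, 9 were higher (11.8%) and 0 lower, against 4.91% and 4.17% of all probes. Nme1, a nucleoside diphosphate kinase, was first: 22.1, 29.0 and 29.0 on the anti-miR-335 arrays, against 16.8, 15.6 and 16.4 in controls. The groups were far apart (log2 difference 0.71 ± 0.12), yet the adjusted p was 0.333 by limma; it was 0.0233 without control replicate 1.

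Paics and Gart, enzymes of purine synthesis, lay at 32.6 ± 2.57 and 2.33 ± 0.0537 on the anti-miR-335 arrays, against 25.3 ± 2.37 and 1.76 ± 0.0790 in controls. Neither overlapped between groups, and their log2 differences were 0.37 ± 0.11 and 0.40 ± 0.14. Dnmt1, which copies DNA methylation after the fork, lay at 19.5 ± 1.56 against 15.98 ± 0.585 in controls, and Topbp1, a firing and checkpoint factor, at 2.56 ± 0.259 against 2.00 ± 0.230. Both were free of overlap. Rb1, the retinoblastoma repressor of E2F, differed by 0.53 ± 0.19 and Tipin, a fork protection factor, by 0.34 ± 0.14, each with control replicate 1 among the anti-miR-335 values. Without that array, Rb1 (adjusted p = 0.0182 by limma), Tipin (adjusted p = 0.0338), Donson (adjusted p = 0.0399; named after its value was seen) and Nme1 passed, 4 of 76, where 3.17% of all probes did. Skp2 had an unadjusted p of 0.0416 but was not above background on any array.

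Mitotic genes, which act later in the same cycle, were set beside them. Of 31 listed, 29 were measured, 15 of them higher in the anti-miR-335 arrays, with a median log2 difference of 0.01 and 0 past the threshold. Values were free of overlap for 3 with the anti-miR-335 arrays higher (10.3%) and 4 with them lower (13.8%). The 76 further replication genes had 11 (14.5%) and 1 (1.32%), and the 47 had 12 (25.5%) and 2 (4.26%), where all probes gave 7.57% and 7.33%. Of the mitotic genes free of overlap, Plk1 (higher), Cenpe and Cdc25c (both lower) were not above background on any array. Genes above background on at least 3 arrays numbered 18 of the 29 mitotic, 66 of the 76 further and 40 of the 47. Of all probes above background on as many arrays, 9.49% were higher without overlap and 8.11% lower. Cdk1 and Top2a stand in both the mitotic and the further list. Prim2, among the 12, has 2 anti-miR-335 values, which makes overlap rarer. Differences between these lists were not tested.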

How the data were processed

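RNA from 6 neurosphere cultures, 3 per group by title, was read on single-colour CodeLink mouse arrays. The authors' deposited values are linear intensities; per the labels, CodeLink software and global median normalization made them, and per the file headers the software was CodeLink Expression Analysis 4.1.0.29054. On the 2 arrays with scanner output used here, 36032 (anti-miR-335) and 35976 (control) values equalled its normalized intensity within 0.0001, so scale and direction are settled there. Control spots were left out. Intensities were floored at their 5th percentile of positive values (0.163). They were compared on the log2 scale with limma 3.58.1 in R 4.3.3 (trend, two-sided, no covariate), adjusted over 34847 probes. The fit was also run on simulated data with equal noise on all arrays, which cannot speak to arrays of unequal quality. Each gene is read from its brightest single-symbol probe, by the platform annotation. Full values are given for genes with an unadjusted p under 0.05, the 6 largest differences above background, no overlap, or a preset key role; among the further genes, for up to 8 of smallest p. Members and lists were chosen with earlier results of these data known. Number of arrays limits precision, and slide or scan batches could not be tested.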

Additional observations from a re-analysis of the deposited data

How the results depend on the processing

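Among the 47 genes, 0 passed under each alternative that kept all 6 arrays: quantile normalization, other floors, dim probes left out, array weights, other variance priors, the mean of a gene's probes and the replicate block. Leaving out arrays or pairs gave 0 to 3 genes. Array weights called 474 of all probes, a robust trend 3, quantile normalization 1, and the leave-out cases 0 to 1571. The 4 genes with an unadjusted p under 0.05 became 2 with a floor at the 1st percentile, no floor, no intensity trend or a robust trend, 15 with array weights, and 0 to 16 over the leave-out cases: 0 without anti-miR-335 replicate 2 or replicate 3 or the replicate 2 pair, 1 without control replicate 2 or the replicate 3 pair, 16 without the replicate 1 pair and 12 once control replicate 1 was dropped. Where the count rose to 12 or more, the share of all probes rose too. With array weights 20.0% of all probes had an unadjusted p under 0.05 (31.9% of the 47 genes). The share was 20.9% without the replicate 1 pair (34.8% of the 46 fitted) and 18.4% without control replicate 1 (25.5% of the 47). The count of 2 was 4.26% of the genes. All probes then had 8.79% (1st percentile floor), 8.67% (no floor), 8.85% (robust trend) and 7.56% (no intensity trend). Beside the counts of 0, all probes had 5.75% without anti-miR-335 replicate 2, 5.38% without its replicate 3 and 3.58% without the replicate 2 pair. Beside the counts of 1 (2.13% and 2.17%), they had 6.35% without control replicate 2 and 3.97% without the replicate 3 pair. Genes whose groups do not overlap numbered 14 to 31 over the leave-out cases. Dropping control replicate 1 gave 27 (57.4%, against 35.5% of all probes). Dropping the replicate 1 pair gave 31, of which 30 were among the 46 fitted (65.2%, against 50.6% of all probes). For the replicate 3 pair the count was 22, of which 21 were among the 46 fitted (45.7%, against 32.1%). Fewer arrays make overlap rarer by construction. The median log2 difference ranged from 0.087 to 0.18, and was 0.08 on scanner signals of the replicate 1 pair alone with normexp correction. The further replication and nucleotide genes had 2 calls with array weights and 0 to 4 over the leave-out cases. Mcm7 turned sign with array weights (-0.32) and over the leave-out cases (-0.47 to 0.41), as did Mcm2 (-0.92 to 0.27), Mcm6 (-0.031 to 0.52) and E2f1 (-0.089 to 0.40); the other 19 of the 23 genes with full values kept theirs under each alternative with a test. In the normexp pair, which has no test, the sign turned for 5: Orc6 (0.09), Prim1 (-0.035), Mcm6 (-0.295), E2f1 (-0.226) and Mcm2, the last not above background. Leaving out arrays brought 13 of the 23, Mcm2 included, under their value divided by 1.5 in some case. Among them were Ccne1 (-0.069) and Prim1 (0.066), both without the replicate 2 pair. The cause was not tested. With the replicate number as a block, 0 genes passed, 3 had an unadjusted p under 0.05 and the median stayed at 0.13; deviations of same-numbered arrays correlated at -0.23, 0.04 and -0.26 over 17843 probes, so the numbers were not taken as pairs.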
